A study of Oryza sativa with 16 samples.

Results

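The 19 genes described here had their highest transcript level at stage 4 of panicle initiation in the d1 mutant and in wild type (WT) rice alike. A gene was taken when it had at least 3 FPKM at stage 4 in both genotypes and when, in each genotype, its stage 4 value was at least 2 times that at stages 1, 2 and 7. FPKM are fragment counts scaled to transcript length and library size, so levels of different genes can be compared per length. The table held 34302 rows, of which 15155 reached 3 FPKM at stage 4 in both genotypes and 19 met the whole rule. The genes were thus chosen by their FPKM in all 8 columns, and the peak itself is a description that carries no test.

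RNA was sequenced from shoot apical meristems of 3-month-old greenhouse plants, grown for 100 days. The d1 plants were mutant for RGA1, which encodes the alpha subunit of the heterotrimeric G protein (allele d1-1), and were compared with WT plants. The shoot apical meristem is the stem cell region at the tip of the stem. At flowering it stops making leaves and becomes an inflorescence meristem, which gives rise to the branches of the panicle, then to spikelets and florets. G protein signalling affects plant height, panicle form and grain shape in rice, and d1 plants are dwarfed. Libraries came from d1 at stages 1, 2, 4 and 7 and from WT at stages 1, 2, 4 and 7, with 2 biological replicates for each of the 8 groups. The labels do not define the stage numbers, and do not say how many meristems or plants went into a library.

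The authors' table gives 1 combined value per genotype and stage, so no value below has an SD or an n, and the depth behind it is unknown. In such bulk tissue, fewer cells of a type and less RNA per cell cannot be told apart. Column sums lay between 621238 and 670519 FPKM. The transcript of the mutated gene (OS05G0333200, an identifier known for RGA1 from general knowledge) stood at 22.0, 20.9, 23.6 and 24.1 FPKM in d1 at stages 1, 2, 4 and 7, against 27.5, 29.6, 30.2 and 29.8 FPKM in WT. For the check of the tissue, 3 identifiers of KNOX homeobox genes, which mark meristems, ranged from 39.2 to 478 FPKM over the 8 columns. These were the KNOX identifiers in the table whose name the gene table gives on the same chromosome. They came from a list of 11 meristem identifiers, of homeobox and CLAVATA genes. Of the 11, 6 were in the table and 4 reached 1 FPKM in at least 2 columns. None of the 19 genes could be paired with a name, since neither the deposited table nor the gene table used lists one for them. They are therefore given by identifier, and nothing is said of what they encode.

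The 19 genes covered a wide range of levels. At stage 4 they had a median of 18.5 FPKM in d1, with a range of 4.17 to 347 FPKM, and a median of 19.3 FPKM in WT, with a range of 3.32 to 243 FPKM. Of the 19, 2 were at 100 FPKM or more in both genotypes, 9 lay between 10 and 100 FPKM in both, 5 were under 10 FPKM in both, and 3 fell on different sides of these limits in d1 and WT. Stage 4 exceeded the highest of the other stages by a median of 2.46 times in d1 and 2.97 times in WT.

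**Figure D1:**
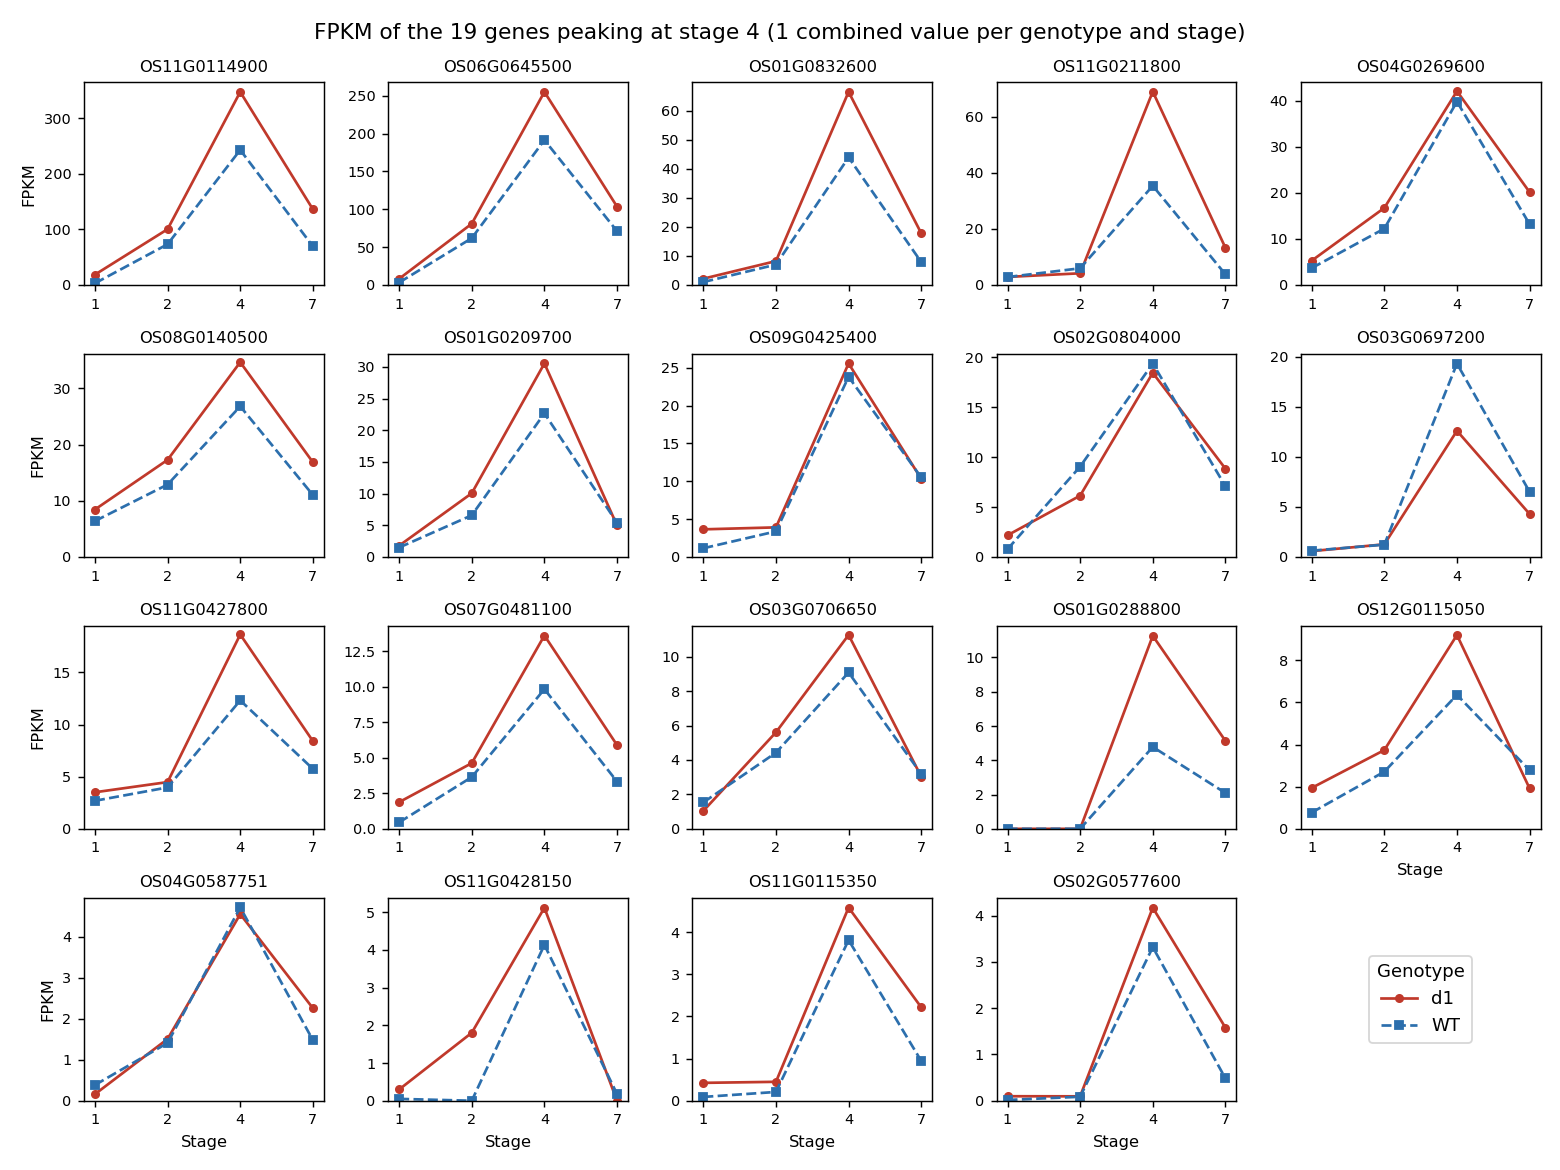
FPKM (vertical axis, linear from 0, a scale of its own in each panel) of the 19 genes at stages 1, 2, 4 and 7 (horizontal axis, in order and not to scale), 1 point per genotype and stage, with d1 as red circles and WT as blue squares. Panels run from the highest to the lowest mean stage 4 level; every curve is highest at stage 4, as the rule requires, and d1 lies above WT at stage 4 in 16 of the 19 panels.

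The most abundant gene was OS11G0114900 (chromosome 11). It had 18.6, 100.2, 347 and 136 FPKM in d1 at stages 1, 2, 4 and 7, against 3.08, 73.2, 243 and 69.5 FPKM in WT. Its value was higher in d1 at each of the 4 stages, and its stage 1 value was by far the lowest in both genotypes. OS06G0645500 (chromosome 6), the next in level, had 8.18, 81.0, 255 and 104 FPKM in d1, against 3.25, 61.9, 192 and 71.1 FPKM in WT. Its stage 1 value was also the lowest in both genotypes, and its stage 7 value lay above that at stage 2 in both.

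The steepest peak, with 1 FPKM added to each value, was that of OS11G0211800 (chromosome 11). It had 2.87, 4.17, 69.0 and 13.3 FPKM in d1, against 2.83, 5.95, 35.4 and 3.80 FPKM in WT. Stages 1 and 2 were low in both genotypes, while the stage 4 value stood 5.20 times above the highest other stage in d1 and 5.95 times above it in WT. OS01G0832600 (chromosome 1), the next steepest, had 2.17, 8.23, 66.5 and 17.8 FPKM in d1, against 1.02, 7.02, 43.9 and 7.89 FPKM in WT, and d1 was higher at each stage. At a fold of 3 in place of 2, only 3 genes met the rule, these and OS01G0209700 (chromosome 1), which is described below.

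At the limit of the rule, the genes just inside were OS03G0706650 (chromosome 3), with stage 4 at 2.01 times the highest other stage in d1 and 2.05 times in WT, and OS08G0140500 (chromosome 8), with 2.01 times in d1 and 2.08 times in WT. The genes just outside were OS06G0184900, with 1.96 times in d1 and 3.18 times in WT, and OS06G0219900, with 2.98 times in d1 and 1.92 times in WT (both on chromosome 6). The set thus has no gap at its edge, and a fold of 1.5 gave 106 genes.

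The increase towards the peak was gradual in some genes and sudden in others. At stage 1 the genes stood at a median of 5.84% of their stage 4 level in d1 and 4.62% in WT, and 6 of the 19 were under 1 FPKM in both genotypes. At stage 2 the medians were 31.7% in d1 and 29.9% in WT. Stage 2 was above stage 1 in 16 of 19 genes in both genotypes. OS01G0288800 (chromosome 1) was listed at 0 at stages 1 and 2 in both genotypes and at 11.3 FPKM in d1 and 4.78 FPKM in WT at stage 4. It was chosen after its values were seen, as the only one of the 19 genes listed at 0 at both early stages in both genotypes.

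**Figure D2:**
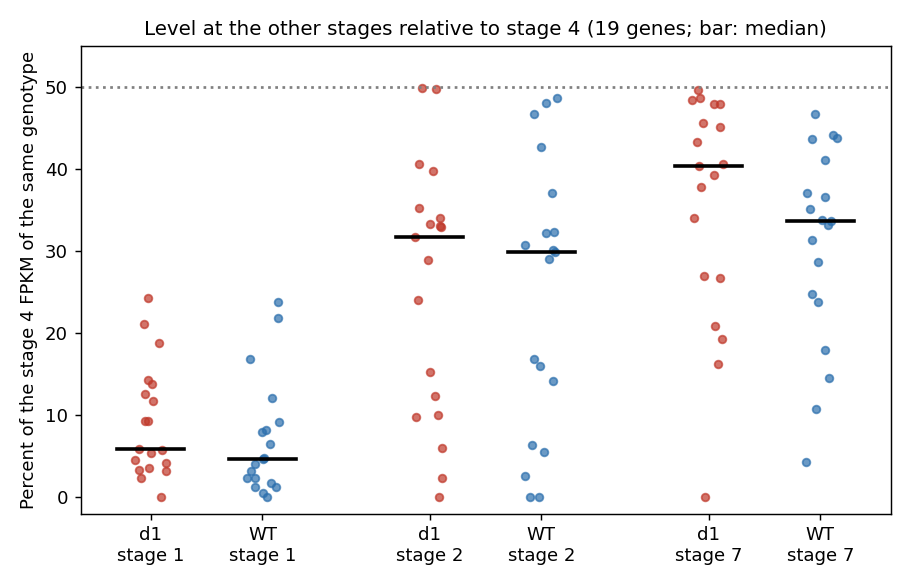
Level of each of the 19 genes at stages 1, 2 and 7 as a percentage of its stage 4 FPKM in the same genotype (vertical axis), with d1 left of WT at each stage (horizontal axis), 1 point per gene and a black bar at the median. The dotted line is the upper limit set by the rule; medians at stage 7 were 40.4% in d1 and 33.7% in WT, above the stage 1 medians of 5.84% in d1 and 4.62% in WT.

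Whether the genes moved before stage 4 was asked by comparing stage 2 with stage 1 over both genotypes, a contrast of values that also served to choose the genes. In a limma fit over all 19757 genes that had at least 1 FPKM in at least 2 columns, 5 of the 19 genes rose and 0 fell (Benjamini-Hochberg adjusted p under 0.05), where 0.410% of all tested genes were called, with 0.329% that rose and 0.0810% that fell. All 19 genes passed this filter on low values, which the rule guarantees through their 2 stage 4 columns. The median difference of the 19 genes was 0.93 on the log2(FPKM + 1) scale, which understates the change of low genes, against -0.01 over all tested genes. Because the rule used these columns, and the genes entered the fit through their stage 4 values, nothing is read from these counts against all tested genes. The adjusted p of single genes given below carry the same limit. Here and below, the error is the spread of the d1 minus WT difference between stages, moderated across genes. It says nothing of how much plants or libraries vary.

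The largest of these early increases was that of OS06G0645500, by 3.52 ± 0.18 (log2, moderated SE; limma adjusted p = 0.013). OS01G0209700 had 1.77, 10.1, 30.6 and 4.97 FPKM in d1 at stages 1, 2, 4 and 7, against 1.48, 6.57, 22.7 and 5.40 FPKM in WT. Its value at stage 2 exceeded that at stage 1 in both genotypes, by 1.80 ± 0.17 (limma adjusted p = 0.025). The other 3 that rose were OS01G0832600, OS04G0269600 and OS08G0140500, with differences between 0.93 and 1.77. No gene was called at all without the filter on low values or without the stage 4 columns, and 3 of the 5 were still called without stage 7.

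After the peak most of the genes did not return to their starting level. At stage 7 they kept a median of 40.4% of the stage 4 level in d1 and 33.7% in WT, and this share was the higher one in d1 in 13 of the 19 genes. The stage 1 share of the stage 4 level was also the higher one in d1 in 13 of the 19. Neither count was made over all tested genes, so nothing particular to stage 7 is read from it. Stage 7 was above stage 1 in 17 of 19 genes in both genotypes, and above stage 2 in 10 of 19 in both. In the fit of stage 7 against stage 1 over both genotypes, 16 of the 19 genes rose and 0 fell (limma, adjusted p under 0.05), where 28.0% of all tested genes were called, with 13.9% that rose and 14.2% that fell. The median difference of the 19 genes was 1.24 (log2), against -0.01 over all tested genes. The rule holds both stages below the peak without setting their order, but it used both, so these counts too are a description and nothing is read from them against all tested genes. The same limit holds for the adjusted p of the single genes that follow.

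OS06G0645500 was 3.80 ± 0.18 higher at stage 7 than at stage 1 (log2, moderated SE; limma adjusted p = 0.00036), and OS11G0114900 was 3.46 ± 0.44 higher (limma adjusted p = 0.0048). The 3 genes that did not pass were OS11G0211800, OS11G0428150 and OS12G0115050. OS11G0211800 differed by 1.10 ± 0.47 (limma adjusted p = 0.14), and stage 7 stood well above stage 1 in d1 but little above it in WT. OS11G0428150 (chromosome 11) had 0.30, 1.80, 5.12 and 0 FPKM in d1, against 0.049, 0, 4.13 and 0.18 FPKM in WT. It was thus low or listed at 0 on both sides of the peak, and its difference was -0.11 ± 0.40 (limma adjusted p = 0.87). OS12G0115050 (chromosome 12) had 1.94, 3.74, 9.20 and 1.92 FPKM in d1, against 0.77, 2.71, 6.36 and 2.78 FPKM in WT. Its difference was 0.54 ± 0.26 (limma adjusted p = 0.18), with no increase over stage 1 in d1.

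The d1 mutant was then compared with WT, which the rule did not do. At stage 4, 16 of the 19 genes had the higher value in d1, or 84.2%, where 50.5% of all tested genes did. At stages 1, 2 and 7 the d1 value was the higher one in 15, 16 and 13 of the 19 genes, or 78.9%, 84.2% and 68.4%, where 53.9%, 51.9% and 51.3% of all tested genes did. A higher d1 value at all 4 stages was found for 9 of the 19 genes, or 47.4%, against 17.8% of all tested genes, and 0 of the 19 were lower at all 4. The median difference of the 19 genes was 0.35, 0.26, 0.36 and 0.54 (log2, d1 minus WT) at stages 1, 2, 4 and 7, whereas the medians of all tested genes were 0.02, 0.01, 0.00 and 0.01.

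No single gene passed the test. In the limma fit with stage as a block, 0 of the 19 genes differed between d1 and WT at an adjusted p under 0.05, where 0.243% of all tested genes did. At an unadjusted p under 0.05 there were 8 of the 19, or 42.1%, against 23.7% of all tested genes. By sign of the fitted difference, 18 were higher and 1 was lower in d1, against 10398 higher and 9359 lower of all tested genes, with a median of 0.38 against 0.01 over all tested genes. These counts too are a description, since the 19 genes are not independent. The largest difference was that of OS11G0114900, 1.05 ± 0.31 (log2, moderated SE; limma adjusted p = 0.14). It rested largely on stage 1, where d1 minus WT was 2.26, and was 0.64 without that stage. The smallest adjusted p among the 19 was that of OS08G0140500. It had 8.43, 17.3, 34.7 and 16.8 FPKM in d1, against 6.38, 12.9, 26.8 and 11.02 FPKM in WT, so that d1 was higher at each stage, and its difference was 0.42 ± 0.06 (limma adjusted p = 0.064). It was called when the filter was set to an average of 5 FPKM or more (limma adjusted p = 0.045), 1 of the 12 genes then tested, with 315 of all 13754 genes then tested.

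The gene that was lower in d1 was OS03G0697200 (chromosome 3), with 0.58, 1.26, 12.6 and 4.29 FPKM in d1, against 0.62, 1.23, 19.3 and 6.51 FPKM in WT. The genotypes were alike at stages 1 and 2, and the lower d1 values were those at stages 4 and 7. Its difference over the 4 stages was -0.28 ± 0.13 (limma adjusted p = 0.27).

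**Figure D3:**
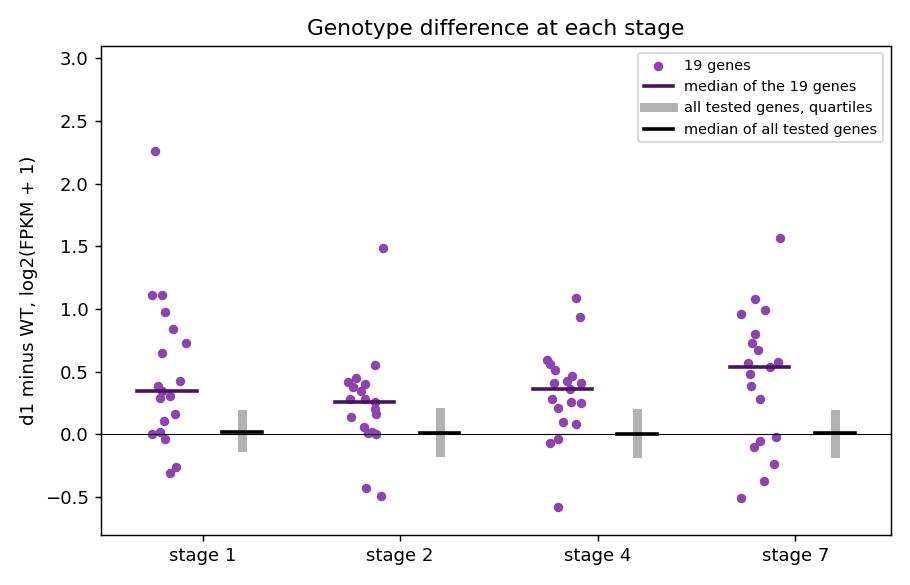
Difference between d1 and WT on the log2(FPKM + 1) scale (vertical axis) at each stage (horizontal axis), with 1 purple point per gene for the 19 genes and a bar at their median, and beside them the quartiles (grey) and median (black) of all 19757 tested genes. The medians of the 19 genes, 0.35, 0.26, 0.36 and 0.54, lie above those of all tested genes at each stage, and some of the 19 points lie below 0 at each stage.

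Levels of identifiers taken as photosynthesis genes, whose transcripts are abundant in leaves, also differed between the columns, with no test. Of 7 identifiers written down for such genes 4 were in the table, and 1 of these had its name on the same chromosome in the gene table. Only 2 of the 4 passed the filter on low values. The counts below thus include identifiers that reached 1 FPKM in fewer than 2 columns. The summed level of the 4 was 29.0, 14.9, 8.36 and 5.76 FPKM in d1 at stages 1, 2, 4 and 7, against 5.58, 19.5, 2.54 and 13.3 FPKM in WT. All 4 were higher in d1 at stages 1 and 4, while at stages 2 and 7 the sum was lower in d1 and 2 and 1 of the 4 were higher. The part of leaf tissue in the genotype difference was not tested.

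The height of the peak was compared between the genotypes in a further limma fit, which sets the d1 minus WT difference at stage 4 against that at the other 3 stages. No gene was called among all 19757 tested, so 0 of the 19 were called with 0% of all tested genes. At an unadjusted p under 0.05 there was 1 of the 19, OS04G0269600 (chromosome 4), against 1.82% of all tested genes. It had 5.27, 16.7, 42.1 and 20.2 FPKM in d1, against 3.67, 12.2, 39.8 and 13.2 FPKM in WT, so that the genotypes were closest at stage 4 (-0.40 ± 0.14 on the log2 scale; limma adjusted p = 1). Over the 19 genes this difference ran from -0.71 to 0.76, with a median of -0.11 against -0.01 over all tested genes. With 2 residual degrees of freedom this does not show that peak heights are alike. In simulated data this fit recovered 0% of genes given a true log2 difference of 0.5 or 1.0. It therefore cannot decide on differences of the size seen here.

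Genes of known developmental pathways were looked up by 128 identifiers written down from general knowledge in 13 lists, among them floral MADS-box factors, panicle branching genes, meristem homeobox genes, cytokinin, gibberellin, brassinosteroid and auxin genes, cell division, and meiosis and tapetum. Of these, 65 were in the table, 53 passed the filter, and 0 were among the 19 genes. Since only 19 of all 19757 tested genes met the rule, a list of 53 could hardly hold any, and nothing is read from this 0. Names of 42 of the 65 were found in the gene table on the chromosome that the identifier gives, and the others could not be checked. Of the 53 tested, 8 had their highest value at stage 4 in both genotypes without meeting the rule, and 9.04% of all tested genes did so or met it. They were spread over 6 lists, with 2 each in the panicle branching and meristem homeobox lists and 1 each in the MADS-box, gibberellin, cell division and meiosis lists. None of the 3 cytokinin, 5 brassinosteroid, 3 auxin, 6 G protein or 2 photosynthesis identifiers tested did. With so few tested in each list, nothing is read from their absence.

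By position, 5 of the 19 genes lay on chromosome 11, or 26.3%, where 5.07% of all tested genes lie. Chromosome 1 held 3, chromosomes 2, 3 and 4 held 2 each, and chromosomes 6, 7, 8, 9 and 12 held 1 each. Chromosome 5, which carries RGA1, held 0 of the 19, where 8.32% of the tested genes lie, and chromosome 10 held 0 also. OS11G0427800 and OS11G0428150 are on adjoining rows of the table, which follows identifier order, and OS11G0114900 and OS11G0115350 are separated by a single row. OS11G0115350 had 0.42, 0.45, 4.59 and 2.22 FPKM in d1, against 0.090, 0.21, 3.81 and 0.95 FPKM in WT, far below OS11G0114900 at each stage and with little change between stages 1 and 2. The ends of chromosomes 11 and 12 are known to share a duplicated segment in rice, and where genes there are near-identical copies the authors' estimation may have split reads between them. Whether any of the 19 genes lies in that segment or shares reads with a copy was not tested.

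Genes beside the 19 were examined within 2 rows on either side. Of 34 such genes that passed the filter and were not among the 19, 8 had their highest value at stage 4 in both genotypes, or 23.5%, against 9.04% of all tested genes. In 4 of them stage 4 was at least 1.5 times every other stage in both genotypes, a share that was not counted over all tested genes. Among these 4, OS02G0577700 and OS03G0696850 were low, at no more than 4.67 and 2.49 FPKM in any column. OS03G0706500, next to OS03G0706650, had 4.54, 14.8, 27.0 and 12.2 FPKM in d1, against 3.91, 13.6, 23.1 and 8.76 FPKM in WT. OS04G0588000, next to OS04G0587751, had 2.14, 5.38, 15.7 and 6.83 FPKM in d1, against 0.94, 4.53, 10.8 and 6.31 FPKM in WT. Both had their lowest value at stage 1, like the gene beside them, and missed the rule only in a ratio below 2. OS12G0114500, 2 rows from OS12G0115050, was more abundant than any of the 19 genes, with 165, 252, 501 and 290 FPKM in d1, against 148, 246, 363 and 193 FPKM in WT. No source used here says whether reads were counted by strand, so reads of overlapping or antisense neighbours could not be told apart.

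**Figure D4:**
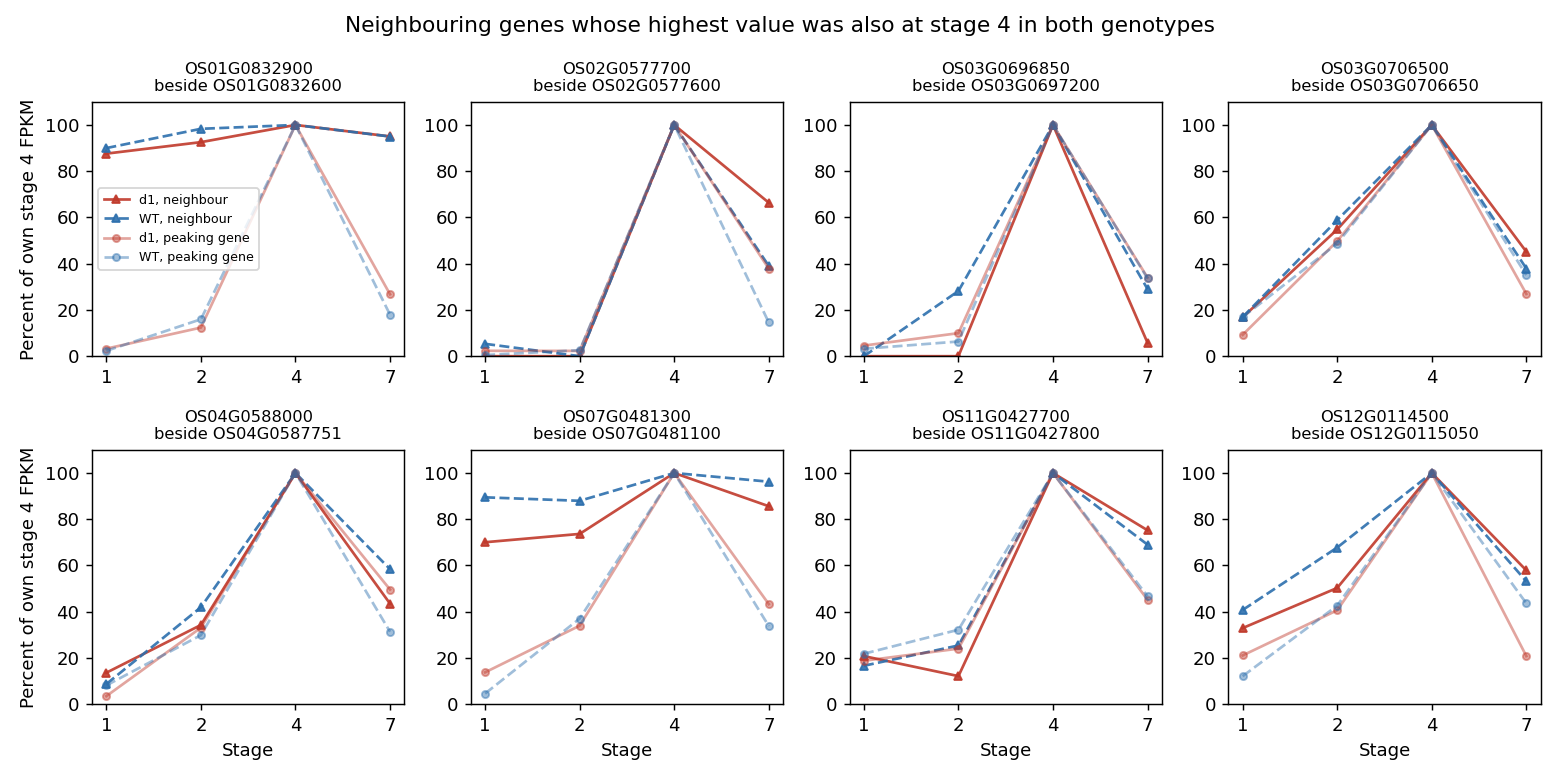
FPKM as a percentage of each gene's own stage 4 value (vertical axis) at stages 1, 2, 4 and 7 (horizontal axis, in order and not to scale) for the 8 neighbouring genes that were highest at stage 4 in both genotypes (triangles, full colour) and the peaking gene beside each (circles, pale), with d1 in red and WT in blue. The neighbour OS01G0832900 is nearly flat, and OS03G0706500 is lowest at stage 1, like the gene beside it.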

How the data were processed

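The authors sequenced total RNA of 16 libraries, 2 for each of 8 groups, and deposited 1 FPKM value per gene and group, so that the 2 libraries had been combined. The unit was inferred from the tools and the values. Per the submitters' processing notes, FastQC, Trimmomatic, TopHat2, Cufflinks and Cuffdiff were used with the genome build IRGSP-1.0; versions, and how columns were scaled to each other, are not given in the sources used. Since FPKM hold no counts, neither the depth nor counting intervals can be stated.

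Groups came from the sample titles, with 0 samples unassigned. Of 34302 rows, 4802 were 0 in all columns. The 19757 genes reaching 1 FPKM in 2 or more columns were analysed as log2(FPKM + 1) with limma 3.58.1 (R 4.3.3; eBayes with trend, Benjamini-Hochberg over all tested genes). The model held genotype and stage (3 residual and 2.54 prior degrees of freedom), with genotype at stage 4 added for peak height (2 residual). The fits were tested on simulated data, in which only a small part of the genes was changed and noise was drawn independently for each value. In the real data 28.0% of tested genes were called for stage 7 against stage 1, so the shares recovered hold for the simulated setting only. At a true log2 difference of 1.0, 72% of changed genes were recovered for d1 against WT, and 54% at 0.5. For stage 7 against stage 1 it was 62% at 1.0 and 16% at 0.5, and for stage 2 against stage 1 it was 66% and 20%. The peak height fit recovered 0% at 0.5 and at 1.0, and 40% at 2.0. Because libraries were combined, the tests planned between libraries could not be made, and p-values rest on differences between stages. Alternatives were the pseudocount, the filter, the scaling of columns, stages left out and the limits of the rule.

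The members, lists and tests were chosen with earlier results of these data known. Genes named are those highest in level, steepest in peak, at the limit of the rule and most changed in each fit, at most 2 per direction; others were named after their values were seen. In all, 1 identifier of the table and 0 of the 19 matched the NCBI gene table (assembly ASM3414082v1), of which no coordinates were used. List identifiers came from general knowledge; of 3 organ polarity and 3 secondary wall identifiers, 0 were in the table used.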

Additional observations from a re-analysis of the deposited data

How the results depend on the processing

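The number of peaking genes, 19, followed the limits of the rule: it was 106 at a fold of 1.5, 3 at a fold of 3, 29 with at least 1 FPKM at stage 4, 11 with at least 10 FPKM, and 11 with 1 FPKM added before the ratio. With columns scaled to the same median 17 genes met the rule, and after quantile normalization 20 did, 17 of the 19 among them in each case. For stage 7 against stage 1, 11 to 16 of the 19 genes were called under the 7 alternatives, with 3880 to 5656 calls over all tested genes, the 11 among the 12 that had a mean of at least 5 FPKM. For stage 2 against stage 1, the 5 called became 0 without a filter on low values, 0 without stage 4 and 3 without stage 7, and 4 or 5 under the others; over all tested genes the 81 calls became 0, 0 and 20 under those settings. For d1 against WT, 0 became 1 when genes had to average 5 FPKM and stayed at 0 under the other 8 alternatives, while calls over all tested genes, 48, were 315 with that filter, 7 with none, 21 after median scaling, and 5, 5, 4 and 5 without stage 1, 2, 4 or 7. The adjusted p of OS08G0140500 ran from 0.045 to 0.3. The peak height difference gave 0 calls under its 8 alternatives. The cause of these shifts was not tested, but leaving out a stage leaves fewer columns. No paired analysis was possible because the 2 libraries of a group, which carry the replicate numbers, were combined before deposit; for the same reason no replicate could be left out.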

Other observations

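Stage 4 peaks by the same limits were more numerous in each genotype taken alone, with 61 genes in d1 and 47 in WT. The 19 genes shared by both make up 31.1% of the d1 list and 40.4% of the WT list. Of the 42 genes that peaked in d1 only, 22 (52.4%) also had their highest WT value at stage 4, and 20 were under 3 FPKM in WT at that stage. Of the 28 that peaked in WT only, 23 (82.1%) had their highest d1 value at stage 4, and 5 were under 3 FPKM in d1. These are counts of the authors' combined values, with no test. The share of all tested genes that are highest at stage 4 in a single genotype was not counted. Nothing is therefore read from these percentages, or from the difference between the d1 and WT lists.

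Genes that had increased by stage 4 were also counted without the limit on stage 7. In both genotypes 323 genes reached at least 3 FPKM at stage 4 and at least 2 times their values at stages 1 and 2. Besides the 19, the 304 others had a median stage 7 level of 88.0% of stage 4 in d1 and 98.3% in WT, and 128 in d1 and 147 in WT were at stage 7 at or above their stage 4 level. The 304 are by definition the genes that missed the decline in d1, in WT or in both, so these medians follow in part from the rule. How many of all tested genes declined as far was not counted, so the 19 of 323 is only a description.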
